A study of Mus musculus with 114 samples.

Results

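The genes described here are 9 members of the activin, GDF3 and ALK7 axis: the ligand genes Inhba, Inhbb and Gdf3, the type I receptor genes Acvr1c (ALK7) and Acvr1b (ALK4), the type II receptor genes Acvr2a and Acvr2b, and the genes of the secreted antagonists follistatin (Fst) and FSTL3. They were taken by symbol from the 29132 genes of the adipocyte expression table, and all 9 were present. The cells were adipocytes of 38 male C57BL/6J mice, obtained by letting the collagenase digest of perigonadal white adipose tissue (WAT) float. From 6 weeks of age the mice were kept on chow (CD) or on a high fat diet (HFD) for 8, 20 or 34 weeks, with 6 mice per group except for 8 CD mice at 34 weeks. All mice were wild type and were fasted for 6 h, and the methods name 2 control diets without saying which mice received which. The question addressed is how obesity and time on the diet alter gene expression in the adipocyte fraction of 1 fat depot.

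Activins are dimers of inhibin beta chains, beta A from Inhba and beta B from Inhbb. They bind a type II receptor kinase (ACVR2A or ACVR2B), which then activates a type I receptor kinase (ACVR1B or ACVR1C), and the type I receptor phosphorylates SMAD2 and SMAD3. GDF3 signals through ACVR1C with the help of a co-receptor, and follistatin and FSTL3 bind activins and keep them from the receptors. ACVR1C is abundant in fat, where its signalling is known for lowering lipolysis and the expression of adipocyte genes, and GDF3 is known to be made by macrophages of fat as well as by adipocytes.

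In this floating fraction the type I receptors were the members that fell with HFD, and Gdf3 and Fstl3 the members that rose at 2 or more of the 3 times. Acvr1b was 0.394 times its CD level at 8 weeks and 0.334 times at 20 weeks, and had no detectable diet difference at 34 weeks, by which time CD mice were also low. Acvr1c fell at 20 and 34 weeks, to 0.446 and 0.570 times the CD level. The summed CPM of 6 adipocyte genes was lower in HFD mice too, with medians of 24164.8 against 50576.5 in CD mice at 20 weeks. At 34 weeks these medians were 22668.2 and 37796.6, and the relation of Acvr1c to this sum was not tested. Gdf3 rose at all 3 times, to a mean of 35.3 ± 18.0 CPM (reads scaled to a sum of 1000000 per mouse; SD, n = 6) in HFD mice at 34 weeks. Fstl3 rose nearly 3-fold at 8 and 20 weeks (2.92 and 2.88 times) and not at 34 weeks, and Inhbb, the main activin chain by level, stayed between 60.2 and 68.6 CPM in 5 of the 6 groups. Of all genes tested, 29.8%, 38.3% and 27.5% were higher in HFD mice at 8, 20 and 34 weeks. Of 10 macrophage genes 7, 8 and 10 were higher (5, 8 and 6 with edgeR). With their mean as a covariate Gdf3 at 8 weeks was at 0.19 (log2, adjusted p = 0.637) and Acvr1c at 34 weeks at -0.51 (adjusted p = 0.153), so that neither call held. That mean itself followed diet, at 5.15 to 7.90 in CD and 8.20 to 9.17 in HFD mice at 20 weeks, so that the fit cannot fully separate the 2. Fewer of all genes were called with it at 20 and 34 weeks as well.

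The promoters of Acvr1c, Acvr1b and Fstl3 are shown because these genes carry the largest opposed diet differences among the receptors and antagonists. Each sequence is the RefSeq sequence (GRCm38.p6) that ends just before the first annotated base of the gene, written 5′ to 3′ on the strand of the gene. Capitals mark 2 short motifs found by a search of both strands, GGGCGG (reverse complement CCGCCC, a GC box) and CAGAC (reverse complement GTCTG, the core bound by SMAD3), which do not overlap each other here.
Acvr1c, chr2:58357897-58358008, minus strand: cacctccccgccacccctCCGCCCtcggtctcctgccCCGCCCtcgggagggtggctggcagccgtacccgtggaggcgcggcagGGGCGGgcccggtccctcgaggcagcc
Acvr1b, chr15:101173822-101174071, plus strand: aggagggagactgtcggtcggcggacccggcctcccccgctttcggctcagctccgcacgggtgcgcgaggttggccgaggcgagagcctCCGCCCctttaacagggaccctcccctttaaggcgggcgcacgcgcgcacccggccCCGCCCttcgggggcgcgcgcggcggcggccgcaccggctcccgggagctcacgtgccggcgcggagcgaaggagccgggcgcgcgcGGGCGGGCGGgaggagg
Fstl3, chr10:79777024-79777273, plus strand: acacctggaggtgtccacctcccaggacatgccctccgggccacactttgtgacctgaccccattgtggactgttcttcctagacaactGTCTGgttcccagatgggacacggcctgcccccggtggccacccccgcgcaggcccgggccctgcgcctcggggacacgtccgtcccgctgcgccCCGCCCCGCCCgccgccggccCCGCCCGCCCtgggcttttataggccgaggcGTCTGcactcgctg
The stretches hold 12, 42 and 22 CpG dinucleotides and 3, 4 and 4 GC boxes. CAGAC was found in Fstl3 only among the 3, at 2 places. GGGCGG is in 35.7% and CAGAC in 49.6% of the 32851 promoters of 300 bases (250 before and 50 after the start) in the same table, so that neither match sets these genes apart. A match is only a description of the letters. Over the whole 300 bases, Acvr1b held 51 CpG, Acvr2a 54, Acvr1c 39 at its first start and 2 at its second, Acvr2b 27, Fstl3 25, Inhbb 23 and Inhba 7, against a median of 7 over all promoters. TATAAA, the letters of a TATA box, was in the entries of Inhba and Fstl3 and in 13.6% of all promoters. No entry was found for Gdf3 and Fst.

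By level, the 3 most abundant members per length were Acvr1b, Acvr1c and Inhbb, with means over all mice of 21.6, 19.4 and 16.1 CPM per kb of exon. Fstl3 (4.61), Gdf3 (4.10), Acvr2a (3.41) and Fst (1.95) followed, and Acvr2b (0.446) and Inhba (0.118) were lowest. The ranges over mice of neighbours in this order overlapped (4.42 to 58.6 for Acvr1b, 5.55 to 40.1 for Acvr1c and 10.6 to 38.9 for Inhbb, in CPM per kb), so that the order within the first 3, or within the next 4, is not firm. The exon lengths are those of the union of exons in GENCODE vM21, while the reads had been counted on vM2.

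Depth allowed tests of 7 members. Each mouse has 1 merged CPM value per gene, from 3 technical replicates and 9275711 to 15480388 reads on genes per mouse, so that 1 read is 0.0646 to 0.108 CPM. At 8 weeks HFD mice were read more deeply (13201234 to 15480388) than CD mice (10562845 to 12611013). Mice of 20 weeks on either diet (13091365 or more) were read more deeply than mice of 34 weeks (12433584 or fewer) and CD mice of 8 weeks. The part of these differences in the results was not tested. All diets began at the same age, so that time on the diet and age cannot be told apart. The 10343 genes with a mean log2(CPM + 1) over 2.0 were tested together with limma, and an adjusted p is from limma's two-sided moderated test with Benjamini-Hochberg adjustment over these genes (threshold 0.05). A log2 fold change is a difference in log2(CPM + 1), which understates the change of low genes. Inhba (0 to 45 reads per mouse) and Acvr2b (11 to 35 reads) missed the filter, and were compared by a two-sided exact permutation test over mice. Reads carry no molecular identifiers, so that read numbers give counting error only, and the labels name separate mice, so that the tests measure the spread between mice.

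The floating fraction carried other cells. The summed CPM of 6 adipocyte genes (Adipoq, Plin1 and others) was 14268 to 59900, and was lowest in HFD mice at 34 weeks. Its medians were 46476.3 in CD and 33870.6 in HFD mice at 8 weeks, and 50576.5 and 24164.8 at 20 weeks. At 34 weeks they were 37796.6 and 22668.2, and only there did the diets overlap. At the same 3 times Acvr1c was 0.761, 0.446 and 0.570 times its CD level, and Acvr1b 0.3945, 0.334 and 0.871 times. The relation of these 2 genes to the adipocyte sums was not tested. The summed CPM of 10 macrophage genes was 358 to 1739 in CD and 1080 to 3134 in HFD mice at 8 weeks. It was 963 to 3348 and 4513 to 9284 at 20 weeks, and 1149 to 12792 and 5260 to 15727 at 34 weeks. Of these 10 genes 7, 8 and 10 were higher in HFD at the 3 times (5, 8 and 6 with edgeR). Of all genes tested, 29.8%, 38.3% and 27.5% were higher at these times. Of the lists for endothelial cells, progenitors and fibroblasts, and mural cells, 6 of 6, 3 of 5 and 3 of 4 genes tested were higher in HFD at 8 weeks, 5, 5 and 2 at 20 weeks, and 6, 3 and 2 at 34 weeks. With edgeR these counts were 4, 2 and 3 at 8 weeks, 4, 4 and 1 at 20 weeks, and 6, 3 and 1 at 34 weeks. The mural counts at 20 and 34 weeks are thus not apart from the share of all genes. Of 7 lipid-associated macrophage genes 6, 7 and 6 were higher (5, 6 and 6 with edgeR), with median log2 fold changes of 2.86, 5.07 and 2.32. T cell genes summed to at most 2.95, B cell genes to at most 5.82 and epididymis and testis genes to at most 35.2 CPM. Mouse 1 of the 20 week CD group stood apart, with a sum of 7 lipid-associated macrophage genes of 1785 CPM against 309 to 452 in the other 5 mice. In such bulk samples fewer adipocytes and less RNA of a gene per adipocyte cannot be told apart.

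**Figure D1:**
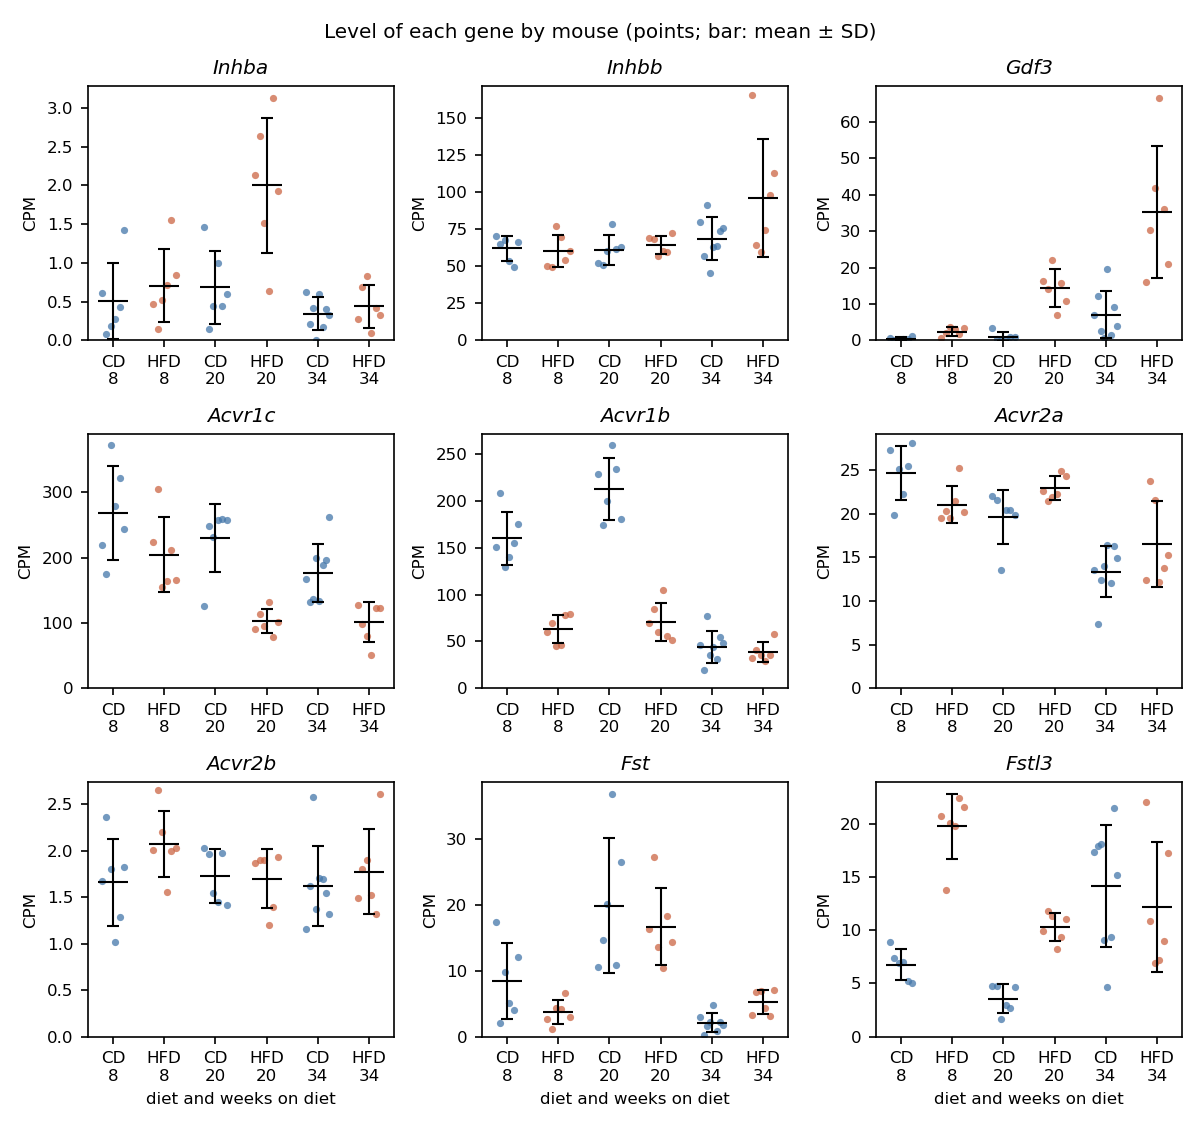
CPM (linear axis, starting at 0) of the 9 genes in each mouse (points, CD blue and HFD red) by diet and weeks on the diet, with the mean and SD of the group (bars). Acvr1b in HFD mice lies under all CD mice at 8 and 20 weeks, Gdf3 is highest in HFD mice at 34 weeks (16.1 to 66.6 CPM), and Fst is high in both diets at 20 weeks.

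Of the 7 members tested, 3 differed between the diets at 8 weeks, where 44.9% of all genes tested did, 4 at 20 weeks (57.0% of all genes) and 4 at 34 weeks (43.2%). Of all genes, 29.8% were higher and 15.1% lower at 8 weeks, 38.3% and 18.7% at 20 weeks, and 27.5% and 15.7% at 34 weeks. These shares are close to the background, so that the result lies in which members moved and in which direction. At 8 weeks Gdf3 and Fstl3 were higher and Acvr1b lower, at 20 weeks the same 3 genes and, lower, Acvr1c. At 34 weeks Gdf3, Fst and Inhbb were higher and Acvr1c lower. Gdf3 is in the counts of all 3 times, and passed the filter only through HFD mice of 34 weeks. Its mean log2(CPM + 1) was 2.42 over all mice and 1.93 without them. In 2 members at 8 weeks all HFD mice lay on 1 side of all CD mice (22.8% of all genes), in 3 at 20 weeks (37.2%) and in 1, Acvr1c, at 34 weeks (2.46%). The diet difference itself changed with time in 0 members between 8 and 20 weeks (4.49% of all genes, limma; edgeR also called 0, and 3 members had an unadjusted p under 0.05), in 2 between 20 and 34 weeks (10.5%) and in 3 between 8 and 34 weeks (28.8%).

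**Figure D2:**
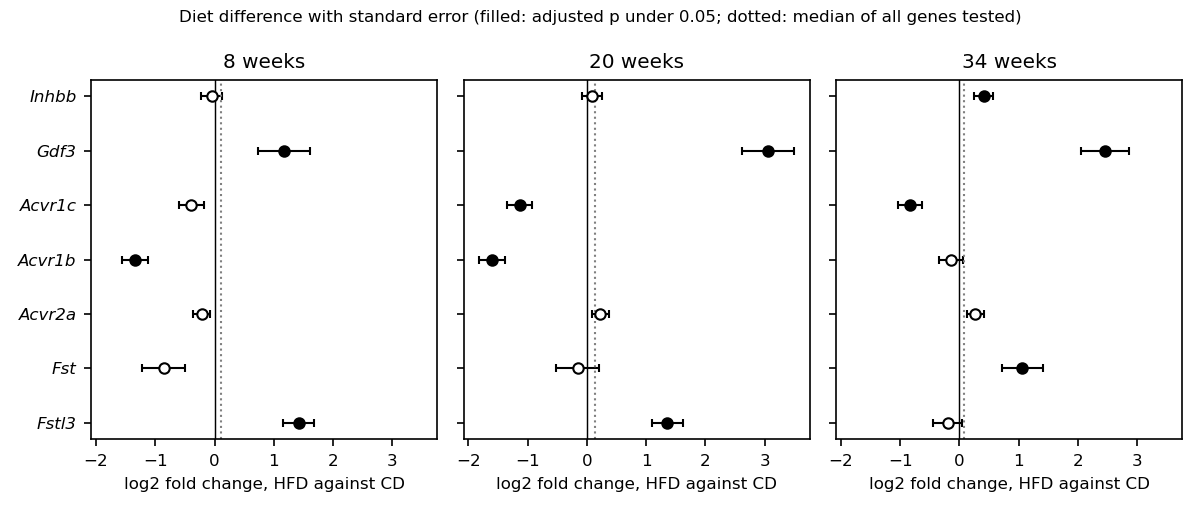
Log2 fold change of HFD against CD (horizontal axis) with its standard error for the 7 genes tested, at 8, 20 and 34 weeks. Filled points have an adjusted p under 0.05 and the dotted line is the median of all genes tested (0.11, 0.14 and 0.07). Gdf3 is to the right at all 3 times, Acvr1b and Fstl3 are far from 0 at 8 and 20 weeks and near 0 at 34 weeks.

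Among the ligands, Inhbb (chr1:119415463-119422248) encodes the beta chain of activin B. Its lowest, median and highest values were 49.7, 65.6 and 70.1 CPM in CD mice, against 49.6, 57.4 and 77.0 CPM in those on HFD at 8 weeks. They were 50.6, 60.7 and 78.4 CPM in CD mice, against 57.1, 64.1 and 72.3 CPM in those on HFD at 20 weeks. At these times the diets overlapped almost completely, and the log2 fold changes were -0.05 (95% interval -0.40 to 0.31, adjusted p = 0.840) and 0.09 (-0.27 to 0.44, adjusted p = 0.690, and -0.13 with TMM scaling). At 34 weeks the values were 45.2, 68.8 and 91.4 CPM in CD mice, against 59.5, 86.2 and 166 CPM in those on HFD. The groups overlapped, with 3 of 6 HFD mice above all CD mice, and Inhbb rose (log2 fold change 0.41 ± 0.16 standard error, adjusted p = 0.0404). The highest value, of mouse 1, carried much of this: without it the log2 fold change was 0.24 (adjusted p = 0.188). The call was also lost without any of 6 other mice (CD mice 2, 4, 5 and 6 or HFD mice 5 and 6, adjusted p from 0.0511 to 0.1004) and when the values were scaled by TMM (0.32, adjusted p = 0.108). It was lost as well without the filter on low values (adjusted p = 0.0609), with edgeR (0.39, adjusted p = 0.0514), with the macrophage covariate (0.54, adjusted p = 0.0808) and with mice of 34 weeks only (adjusted p = 0.172). Within HFD mice Inhbb was higher at 34 than at 8 weeks (log2 fold change 0.59, adjusted p = 0.00536), a call that no single mouse decided. Within CD mice no time difference was called (log2 fold changes from -0.03 to 0.16).

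Inhba (chr13:16004256-16031609), for the beta chain of activin A, was near the limit of detection, and was read in 37 of 38 mice with a median of 7 reads. In HFD mice at 20 weeks it was at 0.638, 2.04 and 3.13 CPM (lowest, median and highest; 9 to 45 reads), against 0.151, 0.519 and 1.47 CPM in CD mice (2 to 21 reads). Here 5 of 6 HFD mice lay above all CD mice, a difference of 0.82 in log2(CPM + 1) (exact permutation p = 0.0108, where 0.002165 is the smallest that 6 against 6 mice can give). At 8 and 34 weeks the differences were 0.19 and 0.09 (exact permutation p = 0.418 and 0.515), and the other 5 groups had means of 0.345 to 0.706 CPM. HFD mice at 20 weeks were also above HFD mice at 8 weeks (exact permutation p = 0.0152) and at 34 weeks (p = 0.00649 by the same exact permutation test). These p-values are not adjusted, and in fits without the filter on low values, adjusted over 21166 genes (35.7% of which limma called at 20 weeks), the diet difference at 20 weeks had an adjusted p of 0.00153 with limma and of 0.0303 with edgeR on the recovered reads. Inhba was at most 2.02% ± 0.895 (SD, n = 6) of the inhibin beta transcripts per kb, in HFD mice at 20 weeks, and Inhbb the rest. The difference at 20 weeks was thus a small change beside the level of Inhbb.

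Gdf3 (chr6:122605403-122610087) encodes growth differentiation factor 3, a ligand of ACVR1C. It was nearly absent from CD mice at 8 weeks, at 0.163, 0.354 and 1.03 CPM (lowest, median and highest, 2 to 13 reads), against 0.602, 2.58 and 3.75 CPM in HFD mice. At 20 weeks the values were 0.0736, 0.629 and 3.29 CPM in CD mice, against 7.02, 14.9 and 22.1 CPM in those on HFD. At 34 weeks they were 0.724, 5.41 and 19.7 CPM in CD mice, against 16.1, 33.1 and 66.6 CPM in those on HFD. Thus every HFD mouse exceeded every CD mouse at 20 weeks, and 5 of 6 did so at 8 and at 34 weeks. The log2 fold changes were 1.17 (standard error 0.43, adjusted p = 0.0276), 3.06 (0.43, adjusted p = 7.48e-07) and 2.46 (0.40, adjusted p = 4.46e-05). Gdf3 passed the filter through the group in which it was high, since its mean log2(CPM + 1) was 2.42 over all mice and 1.93, under the limit, without HFD mice of 34 weeks. By the exact permutation test, which needs no filter, p was 0.00649, 0.002165 and 0.00133 at the 3 times (not adjusted), and without the filter limma gave an adjusted p of 0.0477 at 8 weeks. The call at 8 weeks was lost without CD mouse 2 or 3 or HFD mouse 3, 4 or 6 (log2 fold changes from 1.06 to 1.12, adjusted p from 0.0513 to 0.0676). The increase of the diet difference from 8 to 20 weeks, 1.89, missed the threshold (adjusted p = 0.0616). It passed without mouse 1 of the 20 week CD group (2.15, adjusted p = 0.0217), HFD mouse 4 of 20 weeks (2.06, adjusted p = 0.0438) or CD mouse 4, 5 or 6 of 34 weeks (adjusted p from 0.0318 to 0.0472), and edgeR gave 1.46 (adjusted p = 0.331). Gdf3 also rose with time within each diet, from 8 to 34 weeks by 2.06 in CD mice (adjusted p = 5.38e-05) and by 3.36 in HFD mice (adjusted p = 6.14e-07). As ratios of group mean CPM these rises were 15.7 and 14.7 times, and edgeR gave log2 fold changes of 3.76 and 3.79, so that the smaller value in CD mice goes with the added 1 CPM at their low level.

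Gdf3 moved with the macrophage genes. The mean log2(CPM + 1) of the 10 macrophage genes had medians of 5.34, 6.52 and 7.44 in CD mice at 8, 20 and 34 weeks, against 6.84, 8.64 and 9.29 with HFD, in the same order of time and diet as Gdf3. CD mouse 1 at 20 weeks had the highest value of its group in both. With this mean as a covariate in the fit, the log2 fold changes of Gdf3 were 0.19 (adjusted p = 0.637), 1.44 (adjusted p = 0.00197) and 1.25 (adjusted p = 0.00933), so that the call at 8 weeks was lost and the other 2 were smaller by more than 1 unit. The rise in CD mice from 8 to 34 weeks was 0.51 with the covariate (adjusted p = 0.179). The 3 genes with the group means most like those of Gdf3, out of 10073, were Gpr65, P2ry6 and Matk, with a root mean square difference of 0.209, 0.217 and 0.221 log2 units over the 6 centred group means, against a spread of 1.62 in Gdf3 itself.

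**Figure D3:**
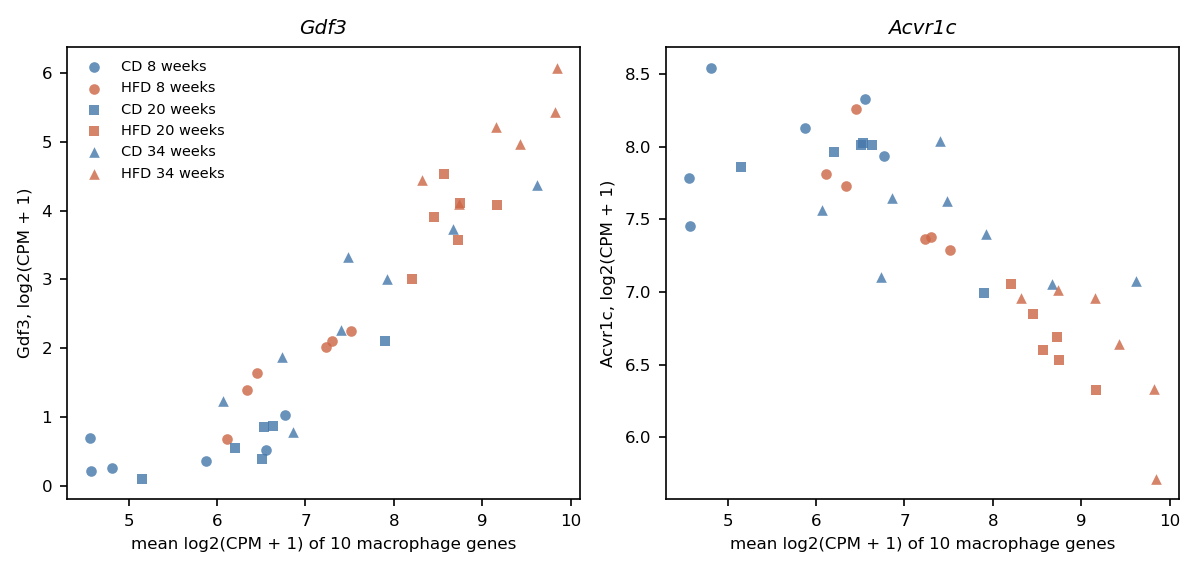
Log2(CPM + 1) of Gdf3 (left) and Acvr1c (right) in each mouse against the mean log2(CPM + 1) of 10 macrophage genes, with colour for the diet and shape for the time. The highest Gdf3 and the lowest Acvr1c are those of HFD mouse 4 of 34 weeks, at 9.84 on the horizontal axis. CD mouse 5 of 34 weeks, at 9.62, has Acvr1c at 7.08, above all HFD mice of 20 and 34 weeks. The single 20 week CD mouse apart from its group sits at 7.90 on the horizontal axis.

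Among the type I receptors, Acvr1c (chr2:58267453-58357896), the gene of ALK7, was the most abundant member by CPM (a mean of 180 CPM over all mice). At 8 weeks the lowest, median and highest values were 174, 261 and 372 CPM in CD mice, against 155, 188 and 305 CPM in those on HFD, which overlapped (log2 fold change -0.39, 95% interval -0.83 to 0.05, adjusted p = 0.136). At 20 weeks they were 126, 253 and 259 CPM in CD mice, against 79.3, 99.0 and 132 CPM in those on HFD. Only CD mouse 1 (126 CPM) fell among the HFD mice there, and the other 5 CD mice were at 232 CPM or more. At 34 weeks the values were 132, 178 and 262 CPM in CD mice, against 51.6, 111 and 128 CPM in those on HFD, with every HFD mouse below every CD mouse. Acvr1c fell at 20 weeks (log2 fold change -1.14 ± 0.21 standard error, adjusted p = 4.02e-05) and at 34 weeks (-0.83 ± 0.20, adjusted p = 0.00151).

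Within HFD mice the fall of Acvr1c came between 8 and 20 weeks (-0.96, adjusted p = 0.00103, without overlap), and 34 weeks differed little from 20 weeks (-0.07, adjusted p = 0.828). Within CD mice Acvr1c was lower at 34 than at 8 weeks (-0.59, adjusted p = 0.0108). With the macrophage genes as a covariate the diet differences were -0.70 at 20 weeks (adjusted p = 0.0337) and -0.51 at 34 weeks (adjusted p = 0.153), so that the second call was lost. The gain of the diet difference from 8 to 20 weeks (-0.74) missed the threshold (adjusted p = 0.118), and passed it without CD mouse 1 at 20 weeks (-0.91, adjusted p = 0.0362). The genes most like Acvr1c over the 6 group means were Pygb, the brain form of glycogen phosphorylase, Zfp185 and Irak1bp1 (root mean square differences of 0.0943, 0.104 and 0.113, against a spread of 0.544). An antisense gene, Gm13544, shares 168 exon bases with Acvr1c, 1.81% of its exons.

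Acvr1b (chr15:101174072-101213684), the gene of ALK4, had the larger fall at the 2 earlier times. Its lowest, median and highest values were 129, 153 and 209 CPM in CD mice, against 45.3, 64.8 and 79.0 CPM in those on HFD at 8 weeks. They were 174, 214 and 259 CPM in CD mice, against 51.2, 64.9 and 105 CPM in those on HFD at 20 weeks. The diets did not overlap at either time, and Acvr1b fell at both (log2 fold change -1.35 ± 0.22 standard error, adjusted p = 1.73e-05, and -1.60 ± 0.22, adjusted p = 4.27e-07). At 34 weeks CD mice were at 19.5, 45.4 and 76.8 CPM and HFD mice at 29.1, 36.0 and 58.5 CPM. Every HFD mouse lay within the range of the CD mice there, and the log2 fold change was -0.14 (95% interval -0.55 to 0.27, adjusted p = 0.594). The diet difference at 34 weeks was smaller than at 20 weeks by 1.46 (adjusted p = 0.00237) and than at 8 weeks by 1.21 (adjusted p = 0.00287).

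The loss of the Acvr1b diet difference was accompanied by a fall in CD mice. All 8 CD mice at 34 weeks lay below all CD mice of 8 weeks and of 20 weeks, at -1.89 (adjusted p = 6.02e-09) and -2.30 (adjusted p = 6.26e-11) on the log2 scale. HFD mice fell less over the same times, with log2 fold changes of -0.69 from 8 weeks (adjusted p = 0.00837) and -0.85 from 20 weeks (adjusted p = 0.00420). With the macrophage genes as a covariate the diet differences at 8 and 20 weeks were -1.21 (adjusted p = 0.000241) and -1.37 (adjusted p = 0.000440), so that both calls held. Rnd3, Dusp16, a phosphatase of MAP kinases, and Tgm1, a transglutaminase, had the most similar group means (root mean square differences of 0.1, 0.116 and 0.123, against a spread of 0.914).

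Per length, the balance of the 2 type I receptors shifted between groups. Together they were at 65.0 ± 4.57 CPM per kb in CD and 36.2 ± 8.07 in HFD mice at 8 weeks, 72.8 ± 8.63 and 27.1 ± 6.38 at 20 weeks, and 29.1 ± 6.12 and 19.7 ± 4.86 at 34 weeks (SD, n = 6, with n = 8 for CD at 34 weeks). Acvr1c made up 44.2% ± 10.1 of this sum in CD and 60.4% ± 6.32 in HFD mice at 8 weeks, 34.0% ± 7.25 and 41.2% ± 4.11 at 20 weeks, and 65.7% ± 10.2 and 54.6% ± 7.56 at 34 weeks. The share was thus below 50% in both diets only at 20 weeks, when Acvr1b was high in CD mice and Acvr1c was low in HFD mice. The shares ranged widely within groups, from 28.5% to 57.9% in CD mice at 8 weeks for example, and they were not tested.

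Of the type II receptors, Acvr2a (chr2:48814109-48903264) was the one expressed at a level open to test. Its medians were 25.3, 20.4 and 13.8 CPM in CD mice, against 20.2, 22.4 and 14.6 CPM in those on HFD, at 8, 20 and 34 weeks, with a range of 7.33 to 28.1 CPM over all mice. No diet difference was called by limma, with log2 fold changes of -0.22 (95% interval -0.52 to 0.08, adjusted p = 0.235), 0.23 (-0.07 to 0.53, adjusted p = 0.194) and 0.27 (-0.01 to 0.55, adjusted p = 0.110). The exact permutation test, not adjusted, gave p = 0.0390 at 8 weeks (lower), 0.0108 at 20 weeks (higher) and 0.192 at 34 weeks. At 20 weeks 4 of 6 HFD mice lay above all CD mice. Levels did differ between times: in CD mice all 8 mice of 34 weeks lay below all mice of 8 weeks (-0.86, adjusted p = 3.51e-06), and in HFD mice Acvr2a was lower at 34 than at 20 weeks (-0.49, adjusted p = 0.0121). Exons of Orc4 on the other strand share 446 bases with Acvr2a, 7.84% of its exons, and the libraries were made with a stranded kit. Acvr2b (chr9:119401583-119442148) had group means of 1.62 to 2.07 CPM. Its diet differences were 0.22, -0.02 and 0.08 in log2(CPM + 1) (exact permutation p = 0.117, 0.853 and 0.4995). Of the type II receptor transcripts per kb, Acvr2b was 8.98% to 15.5% by group mean and Acvr2a the rest.

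Among the antagonists, Fstl3 (chr10:79777274-79782630) encodes a secreted relative of follistatin. Its lowest, median and highest values were 5.07, 6.98 and 8.90 CPM in CD mice, against 13.8, 20.4 and 22.4 CPM in those on HFD at 8 weeks. They were 1.62, 3.798 and 4.76 CPM in CD mice, against 8.23, 10.5 and 11.8 CPM in those on HFD at 20 weeks. Every HFD mouse exceeded every CD mouse at both times, and Fstl3 rose at both (log2 fold change 1.42 ± 0.26 standard error, adjusted p = 8.64e-05, and 1.35 ± 0.26, adjusted p = 5.35e-05). At 34 weeks CD mice were at 4.71, 16.3 and 21.4 CPM and HFD mice at 6.87, 9.92 and 22.03 CPM. The groups overlapped fully but for 1 HFD mouse, with a log2 fold change of -0.20 (95% interval -0.70 to 0.30, adjusted p = 0.522). The diet difference at 34 weeks was different from that at 20 weeks by -1.55 (adjusted p = 0.00646) and from that at 8 weeks by -1.62 (adjusted p = 0.00111).

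From 8 to 34 weeks Fstl3 moved in opposite directions, up in CD mice (0.86, adjusted p = 0.00267) and down in HFD mice (-0.76, adjusted p = 0.0155). Fstl3 in CD mice was higher at 34 than at 20 weeks by 1.67 (adjusted p = 8.91e-07, 7 of 8 mice above all mice of 20 weeks). In HFD mice it was lower at 20 than at 8 weeks (-0.87, adjusted p = 0.0102). CD mice were lower by a like amount then (-0.80), with all mice of 20 weeks below all of 8 weeks, but were not called (adjusted p = 0.0805). The diet difference changed by -0.07 from 8 to 20 weeks (adjusted p = 0.917). The macrophage covariate left the calls at 8 and 20 weeks in place (1.59, adjusted p = 1e-04, and 1.62, adjusted p = 0.000528). Exons of Prss57 on the other strand share 1157 bases with Fstl3, 47.3% of its exons, and Prss57 itself was at 0.292 CPM or less in every mouse. The methods counted only unambiguous reads and give no strand setting for the count. The effect of this overlap on the level of Fstl3 was not tested. The genes most like Fstl3 over the group means were Cdr2, Ccdc102a and Serpinh1, the collagen chaperone HSP47 (root mean square differences of 0.123, 0.143 and 0.146, against a spread of 0.700).

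Fst (chr13:114452262-114458989) followed time more than diet. In CD mice the lowest, median and highest values were 2.12, 7.42 and 17.4 CPM at 8 weeks, 10.5, 17.3 and 36.7 CPM at 20 weeks, and 0.323, 2.03 and 4.88 CPM at 34 weeks. In HFD mice they were 1.21, 3.63 and 6.57 CPM, then 10.4, 15.3 and 27.3 CPM, then 3.21, 5.54 and 7.01 CPM. Every mouse of 20 weeks was above every mouse of 34 weeks on either diet. The log2 fold changes from 20 to 34 weeks were -2.72 in CD (adjusted p = 6.43e-08) and -1.50 in HFD mice (adjusted p = 0.00294), and that from 8 to 20 weeks was 1.96 in HFD mice (adjusted p = 0.000213). In CD mice the rise from 8 to 20 weeks was 1.26 (adjusted p = 0.0451), a call that was lost in each of 5 other fits (adjusted p from 0.0520 to 0.0742). It was also lost without any of 15 single mice (adjusted p from 0.0501 to 0.146), among them CD mice 2, 3, 4 and 5 of 8 weeks and CD mice 3, 4 and 6 of 20 weeks.

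The diet difference of Fst was -0.86 at 8 weeks (adjusted p = 0.0538), -0.16 at 20 weeks (adjusted p = 0.733) and 1.06 at 34 weeks (standard error 0.34, adjusted p = 0.0124), where 3 of 6 HFD mice were above all CD mice. Between 8 and 34 weeks it changed by 1.92 (adjusted p = 0.00446). The difference at 8 weeks passed the threshold with TMM scaling (-0.95, adjusted p = 0.0326) and with edgeR on recovered reads (-1.30, adjusted p = 0.0156), and without any of 7 single mice (adjusted p from 0.0125 to 0.0491). The rise at 34 weeks did not pass with the macrophage covariate (0.95, adjusted p = 0.150). Per length, Fst was 36.6% ± 16.1 of the 2 antagonists in CD and 8.65% ± 3.30 in HFD mice at 8 weeks, 72.2% ± 13.3 and 45.5% ± 6.61 at 20 weeks, and 9.66% ± 10.9 and 20.8% ± 9.35 at 34 weeks. The sum of both had group means of 4.60 to 8.87 CPM per kb, and neither the shares nor the sum were tested.

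**Figure D4:**
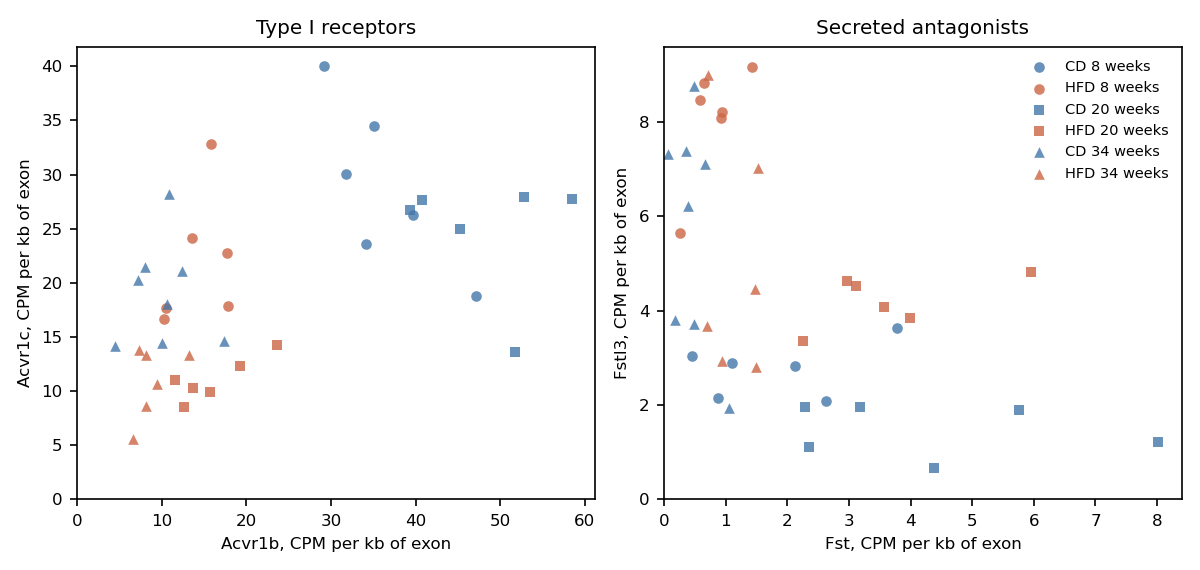
Levels per length (CPM per kb of exon, both axes from 0) of the type I receptors Acvr1c against Acvr1b (left) and of the antagonists Fstl3 against Fst (right) in each mouse, with colour for the diet and shape for the time. CD mice of 8 and 20 weeks lie apart on the right of the receptor plot (Acvr1b at 29.2 or more), and mice of 20 weeks hold the highest Fst.

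Over time, 1 of 7 members tested differed between 20 and 8 weeks in CD mice (3.58% of all genes), 6 between 34 and 8 weeks (64.7%) and 5 between 34 and 20 weeks (62.5%). In HFD mice the numbers were 4 (36.5%), 6 (52.5%) and 5 (30.2%). The member not called between 34 and 8 weeks was Inhbb in CD and Fst in HFD mice. Gdf3, which passed the filter only through HFD mice of 34 weeks, is in all these counts but that of 20 against 8 weeks in CD mice. Gdf3 rose and both type I receptors and Acvr2a fell from 8 to 34 weeks on either diet, while Fstl3 rose in CD and fell in HFD mice. In HFD mice the fall of Fstl3 was no longer called without mouse 3 or 4 of 34 weeks (adjusted p = 0.0509 and 0.0510), nor that of Acvr2a without any of 6 mice (mice 4 and 5 of 8 weeks and 1, 4, 5 and 6 of 34 weeks, adjusted p from 0.0507 to 0.103). The later rises of Gdf3 and Inhbb in HFD mice, from 20 to 34 weeks, were 1.17 (adjusted p = 0.0387) and 0.48 (adjusted p = 0.0354), and each was lost without any of 6 single mice (HFD mice 2, 4 and 6 of 20 weeks and 3, 4 and 5 of 34 weeks for Gdf3, and 3, 4 and 5 of 20 weeks and 1, 5 and 6 of 34 weeks for Inhbb, adjusted p from 0.0580 to 0.145). Without the filter on low values both were lost too (adjusted p = 0.0655 and 0.0574), that of Gdf3 also with a pseudocount of 0.5, edgeR or the mouse number as a block (adjusted p from 0.0531 to 0.0663) and that of Inhbb with TMM scaling (adjusted p = 0.0508). With the macrophage covariate the numbers in HFD mice were 1 between 20 and 8 weeks and 2 between 34 and 8 weeks, and far fewer of all genes were called too.

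The other genes of the pathway were taken by list. Of all genes tested, 44.9%, 57.0% and 43.2% were called at 8, 20 and 34 weeks. These were 29.8%, 38.3% and 27.5% higher and 15.1%, 18.7% and 15.7% lower, and a list count near these shares does not set that list apart. Of 12 other ligands of the TGF-beta superfamily, Inhbe, Nodal and Gdf1 had no read in any mouse, Inha (the alpha chain that turns activin into inhibin) had 18 reads over all mice, and 3 passed the filter. Of these Gdf15, a stress-induced hormone whose known receptor, GFRAL, lies outside this pathway, rose at 8 and 20 weeks (1.34 and 2.15, adjusted p = 0.0138 and 0.000104), Bmp4 fell at 8 weeks (-0.87, adjusted p = 0.0122) and Bmp2 was not called at any time. The medians of the 3 were 0.39, -0.24 and 0.28. Of 12 co-receptors and inhibitors 3 were tested, with medians of -0.19, 0.11 and 0.56. The relative of follistatin Fstl1 rose at all 3 times by 2.5, 4.53 and 2.81 (adjusted p = 0.000488, 7.51e-08 and 0.000106). Tgfbr3 (betaglycan, the inhibin co-receptor) fell at 8 weeks (-0.49, adjusted p = 0.0108) and Bambi, a decoy receptor, rose at 34 weeks (0.56, adjusted p = 0.0136). Cfc1 had no read and Tdgf1 (Cripto, a co-receptor of GDF3) 1 read in all 38 mice.

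Of the 4 proprotein convertases, which cut the precursors of these ligands, Pcsk5 fell at all 3 times (-1.13, -1.33 and -0.63, adjusted p = 0.00114, 8.29e-05 and 0.0402), Pcsk6 fell at 8 and 20 weeks (-0.62 and -0.89) and Furin rose at 20 weeks (0.69, adjusted p = 0.000791). Their medians were -0.39, -0.39 and 0.02. Of 6 other receptors of the TGF-beta family tested, 1 fell at 8 weeks and 3 rose at 20 and at 34 weeks (medians -0.09, 0.34 and 0.48). Tgfbr1, the closest relative of the type I receptors above, was lower at 8 weeks (-0.62, adjusted p = 0.0398) and higher at 20 and 34 weeks (1.11 and 1.24, adjusted p = 0.000298 and 0.000144). Acvrl1 and Tgfbr2 rose at 20 and 34 weeks, and Acvr1, Bmpr1a and Bmpr2 were not called at any time. At 20 weeks, when Acvr1b and Acvr1c fell, none of these 6 was called lower on the deposited scale and 1 was with TMM scaling.

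Of 14 genes of the SMAD2 and SMAD3 branch tested, none was called at 8 weeks by limma (unadjusted p under 0.05 in 1, and 2 lower by edgeR), 3 rose and 2 fell at 20 weeks (1 and 4 with TMM scaling), and 4 rose and 3 fell at 34 weeks (medians -0.15, 0.12 and 0.04). The corepressor Tgif1 rose by 1.88 and 1.82 at 20 and 34 weeks (adjusted p = 0.00133 and 0.00187), and the SMAD phosphatase Ppm1a fell by 0.53 and 0.36 (adjusted p = 8.04e-06 and 0.00101). Ldlrad4, an inhibitor of SMAD2 and SMAD3, rose at both times (0.52 and 0.84), Smad2 rose at 20 weeks (0.20, adjusted p = 0.0198) and the inhibitory Smad6 fell at 20 weeks (-0.92, adjusted p = 0.00156). Of 7 genes that SMAD2 and SMAD3 induce in many cells, 6 rose at 8 weeks, 5 rose at 20 weeks (3 with TMM scaling), and 2 rose and 1 fell at 34 weeks (medians 1.27, 0.83 and 0.19). Cdkn1a rose by 1.58, 2.41 and 1.00 and Tgfbi by 1.27, 0.83 and 1.17 at the 3 times, and Col1a1 by 2.55 and 3.66 at 8 and 20 weeks with 0.14 (adjusted p = 0.845) at 34 weeks. Ltbp2 rose at 8 and 20 weeks (0.54 and 0.50) and fell at 34 weeks (-0.42, adjusted p = 0.0138). Col1a1 is also a fibroblast gene, and 3 and 5 of 5 genes of the progenitor and fibroblast list were higher at 8 and 20 weeks (2 and 4 with edgeR). At 34 weeks, with Col1a1 at 0.14, 3 of the 5 were higher.

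Of 5 adipocyte genes that ALK7 signalling is known to lower, 1 fell at 8 weeks, 3 at 20 weeks and 5 at 34 weeks (medians -0.27, -0.53 and -0.61), while the median of all genes tested was slightly above 0, and TMM scaling gave equal numbers. Adrb3, the main adrenergic receptor for lipolysis, was at -0.67 (adjusted p = 0.0800), and fell at 20 and 34 weeks (log2 fold changes -1.68 and -2.77, adjusted p = 3.25e-05 and 7.91e-08). Pnpla2 (the triglyceride lipase ATGL) fell at all 3 times (-0.63, -0.82 and -0.58), Lipe (hormone-sensitive lipase) at 20 and 34 weeks (-0.53 and -0.70), and the transcription factors Cebpa and Pparg at 34 weeks only among the 3 times (-0.61 and -0.54, adjusted p = 0.00170 and 0.00366). Of the 6 adipocyte markers of the samples, 1 was lower and 1 higher at 8 weeks, and 4 were lower and 1 higher at 20 weeks. At 34 weeks 5 were lower and 0 higher. Of all genes tested, 15.1%, 18.7% and 15.7% were lower at the 3 times.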

How the data were processed

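RNA-seq of isolated adipocytes from 38 mice was analysed, listed as 114 samples of 3 technical replicates per mouse. Per the methods and the submitters' processing notes, the authors aligned reads to mm10 (GRCm38) with STAR 2.5.2b, counted them over the exon union (GENCODE vM2) with featureCounts (Subread 1.5.1), discarded genes without an Entrez identifier and normalized with edgeR. The deposited CPM values sum to 1000000 in each of the 38 columns, which hold 1 merged value per mouse, so that no TMM factor is visible. All values were whole multiples of 1 read (tolerance 0.1), and these reads gave the depth and the edgeR alternative. Samples were grouped by the labels. The log2(CPM + 1) of the 10343 genes with a mean over 2.0 was fitted in 6 groups with limma 3.58.1 (mean-variance trend, 32 residual degrees of freedom, R 4.3.3), after a test on simulated data. Single genes under the filter and no-overlap counts were computed with scipy 1.17.1. Alternatives were a pseudocount of 0.5, no filter, TMM scaling, edgeR 4.0.16 on recovered reads, the mouse number as a block, a macrophage covariate, each mouse left out, and single times. The members, the lists and the rule for named genes (all members, at most 6 genes per list by adjusted p, the 3 genes most alike) were chosen with earlier results of these data known. Positions and promoters are from RefSeq GRCm38.p6. Of the marker lists, Adgre1 and Hbb-b1, and of the induced genes Ctgf, were not analysed here.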

Additional observations from a re-analysis of the deposited data

Results flagged for a closer look

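In 6 of 54 groups (9 genes in 6 groups) 1 mouse lay far from the others by Dixon's criterion, where chance gives about 1 in 20. Mouse 1 of the 20 week CD group had the highest Gdf3 (3.29 CPM, others 0.0736 to 0.819) and the lowest Acvr1c (126 CPM, others 232 to 259). Acvr2a was highest in mouse 5 of the 8 week HFD group (25.2 CPM, others 19.5 to 21.5) and lowest in mouse 3 of the 20 week CD group (13.6 CPM, others 19.8 to 22.04). Acvr2b was highest in mouse 3 of the 34 week CD group (2.58 CPM, others 1.16 to 1.71), and Fstl3 lowest in mouse 2 of the 8 week HFD group (13.8 CPM, others 19.8 to 22.4).

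The diet difference changed with time in 5 of 21 interaction terms (limma, adjusted p under 0.05). For Acvr1b it was less negative at 34 than at 20 weeks by 1.46 and than at 8 weeks by 1.21 on the log2 scale. For Fst it changed by 1.92, from -0.86 at 8 to 1.06 at 34 weeks. For Fstl3 it changed by -1.55 from 20 and by -1.62 from 8 to 34 weeks. These 5 calls rest on comparisons that share the mice of 34 weeks.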

How the results depend on the processing

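Of the 84 member results (7 genes in 12 comparisons), 82 kept direction and side of the threshold with a pseudocount of 0.5, 79 without the filter, 77 with TMM scaling, 76 with edgeR and 62 with the macrophage covariate. With mice of 1 time only, 20 of 21 did. TMM moved the median log2 fold change of all genes from 0.108 to 0.00583 at 8 weeks, from 0.136 to -0.071 at 20 weeks and by -0.0861 at 34 weeks. The mouse numbers do not pair the mice: of 18 same-numbered pairs, 8 correlated over 0.1 (r from -0.509 to 0.529) and 3 correlated best with their own number. With the mouse number as a replicate block 81 of 84 were unchanged, and the number of members called between 20 and 8 weeks in CD mice was 0. That number was also 0 with a pseudocount of 0.5, without the filter, with edgeR and with the covariate. The covariate left 1 member called for the diets at 34 weeks, 1 for HFD 20 against 8 weeks and 2 for HFD 34 against 8 weeks. Of all 10343 genes tested, it moved the number called from 5894 to 2865 at 20 weeks and from 4468 to 686 at 34 weeks. For CD 20 against 8 weeks that number went from 370 to 787. It went from 3772 to 435 for HFD 20 against 8 weeks and from 5432 to 1333 for HFD 34 against 8 weeks. Single-time fits gave 2457 at 34 weeks. The cause was not tested.

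Signs turned only in values near 0 or not called. Inhbb was at -0.13 with TMM (-0.12 with edgeR) at 20 weeks, -0.0012 with TMM for CD 34 against 8 weeks, 0.0098 with edgeR and 0.046 with the covariate for CD 20 against 8 weeks, and 0.053 with the covariate at 8 weeks. With the covariate Acvr1b was at 0.035 and Fstl3 at 0.0041 at 34 weeks, Acvr1c at 0.044 for HFD 34 against 20 weeks, Gdf3 at -0.43 for CD 20 against 8 weeks, and the diet difference of Fstl3 changed by 0.038 from 8 to 20 weeks. With each mouse left out, the turned values were within these ranges: Inhbb at 8 weeks -0.12 to 0.0031 and for CD 20 against 8 weeks -0.10 to 0.020, Fst at 20 weeks -0.30 to 0.042, Fstl3 from 8 to 20 weeks -0.22 to 0.0089, Acvr2a from 20 to 34 weeks -0.064 to 0.14, and for HFD 34 against 20 weeks Acvr1c -0.15 to 0.11 and Fstl3 -0.072 to 0.24. The number of members called ranged from 2 to 4, 4 to 4 and 3 to 4 for the diets at 8, 20 and 34 weeks, 0 to 2, 2 to 2 and 3 to 5 for the changes of the diet difference (8 to 20, 20 to 34 and 8 to 34 weeks), 0 to 2 for CD 20 against 8 weeks and 3 to 5 for HFD 34 against 20 weeks.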

Other observations

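Mstn, the gene of myostatin, which also binds ACVR2B, was named after its values were seen. It had no read in any CD mouse at 8 weeks and a mean of 1.34 ± 1.53 CPM (SD, n = 6) in HFD mice, between 0 and 3.42 CPM, and was under the filter on low values. The other groups had means of 0.0618 CPM (CD) and 0.266 CPM (HFD) at 20 weeks and 0.443 CPM (CD) and 0.112 CPM (HFD) at 34 weeks. Gdf11, a close relative of myostatin, had group means between 0.316 and 0.888 CPM.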
